A study of Mus musculus with 2 samples.

Results

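The genes described here are 38 genes of microglia, of border macrophages and of the growth factor system that maintains both, out of 43346 mouse genes in the tables. They were chosen by name: each gene identifier was matched, without its version, to the symbol in the GENCODE M21 annotation. The libraries were made from total RNA of B6NCrl mouse forebrain at embryonic day 12.5, from healthy embryos of mixed sex. Replicate 1 pooled the forebrains of 120 embryos and replicate 2 those of 68, and 10 ng of RNA longer than 200 nucleotides entered each library. The pools form 1 group with no treatment or mutant, so levels were described and no test between conditions was possible. The title of the series states that a later deposit replaces it.

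Microglia are the macrophages of the brain tissue itself. They descend from yolk sac progenitors that enter the neural tube early in development, and they stay throughout life without replacement from blood in the healthy brain. Border macrophages lie in the meninges, around vessels and in the choroid plexus, share the yolk sac origin and depend on the same receptor, Csf1r. Microglia take up dying cells and cell debris and help shape developing circuits.

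Levels are given in TPM, a relative abundance that is corrected for transcript length and library size, so that genes can be set beside each other. Pairs of values belong to replicate 1 and replicate 2. Expected counts, the estimated number of reads of a gene, summed over mouse genes to 32470299 and 33411129. The 3 genes chosen to mark these cells were present: Csf1r (ENSMUSG00000024621) at 6.36 and 6.58 TPM, C1qb (ENSMUSG00000036905) at 13.1 and 15.5 TPM, and Mrc1 (ENSMUSG00000026712) at 2.46 and 2.67 TPM. The tissue was whole forebrain, so the tables cannot tell fewer macrophages apart from less RNA per macrophage. Neural genes were abundant. The highest radial glial genes were Vim at 906 and 922 TPM, Fabp7 at 952 and 800 TPM and Hes5 at 379 and 376 TPM. The highest neuronal genes were Tubb3 at 737 and 683 TPM, Map2 at 301 and 279 TPM and Stmn2 at 207 and 212 TPM.

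Sequences are shown for promoter stretches of some of these genes and, further below, for a splice junction of Csf1. Spi1 encodes PU.1, the ETS family factor that macrophages require, and PU.1 binds purine-rich sites around the core GAGGAA. The 250 bases before each RefSeq start (GRCm38.p6) were searched for GAGGAA on either strand. A gene counted if any of its starts matched, and the 27025 mouse genes with an entry had 32851 such windows. GAGGAA stood in 16 of the 29 listed genes with an entry (55.2%), against 25.9% of the 27025. Genes with more starts had more chances to match, and the number of starts was not matched. The longer form GAGGAAGT, which contains GAGGAA, stood in 2 of the 29 (6.90%), C1qc and Pf4, against 2.79% of mouse genes. A match describes the letters and does not show binding. The 3 stretches below are those of C1qc and Pf4, which hold the longer form, and of the marker Mrc1, which holds 3 copies of the core. C1qc is at chr4:136893066-136893164 (minus strand), Pf4 at chr5:90772185-90772434 (plus strand) and Mrc1 at chr2:14229164-14229391 (plus strand), and bases that GENCODE M21 places inside the gene were left out of C1qc and Mrc1. Sequences read 5′ to 3′ along the gene's strand, and capitals mark the core, which is TTCCTC here because it lay on the opposite strand in every copy. The copy in Pf4 begins 8 bases before the RefSeq start, the copy in C1qc 193 bases before it, and those in Mrc1 between 180 and 35 bases before it.
C1qc: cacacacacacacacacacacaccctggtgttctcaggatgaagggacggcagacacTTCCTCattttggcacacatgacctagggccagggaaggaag
Pf4: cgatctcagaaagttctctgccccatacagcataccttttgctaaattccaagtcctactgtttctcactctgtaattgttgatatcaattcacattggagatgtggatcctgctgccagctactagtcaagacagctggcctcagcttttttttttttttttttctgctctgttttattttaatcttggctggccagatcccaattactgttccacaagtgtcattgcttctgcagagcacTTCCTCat
Mrc1: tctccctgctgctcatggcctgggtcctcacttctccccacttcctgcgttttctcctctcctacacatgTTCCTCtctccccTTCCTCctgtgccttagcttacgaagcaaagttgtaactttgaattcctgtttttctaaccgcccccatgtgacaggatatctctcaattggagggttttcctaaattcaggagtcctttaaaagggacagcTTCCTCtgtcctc

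The growth factor gene Csf1 is shown at the splice junction that separates its long and short coding forms. Its transcripts Csf1-201 and Csf1-202 share an exon at chr3:107750311-107750458 (GRCm38, minus strand) and then join the next coding exon at different positions. In Csf1-201 that exon spans chr3:107748154-107749169 (1016 bases), and in Csf1-202 it spans chr3:107748154-107748284 (131 bases). Lower case gives the last 20 bases of the shared exon and capitals the first 20 bases of the exon that follows it. The difference is 885 coding bases, or 295 residues, which in the long form hold the sites where the factor is cut free of the membrane.
Csf1-201: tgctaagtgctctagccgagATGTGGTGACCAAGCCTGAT
Csf1-202: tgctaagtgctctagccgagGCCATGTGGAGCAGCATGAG

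Macrophage transcripts were present across all groups of the list at low to moderate levels. Of the 38 genes, 28 (73.7%) reached 1 TPM, the level used here to call a gene detected, in both pools, against 60.0% of 21474 protein-coding genes. P2ry13 reached it in replicate 2 alone, and 9 genes stayed below it in both. The genes at 1 TPM in both pools were 13 of 18 pan-macrophage genes, 5 of 7 microglial genes, 5 of 7 border macrophage genes, 2 of 3 growth factor genes and 3 of 3 lineage factors. Together the 38 genes held 176 TPM in replicate 1 and 205 TPM in replicate 2. Their median was 3.04 and 3.79 TPM, against 4.43 and 4.66 TPM over all protein-coding genes. At least 3 expected counts were assigned in both pools to 37 of the 38, all but Cd163.

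**Figure D1:**
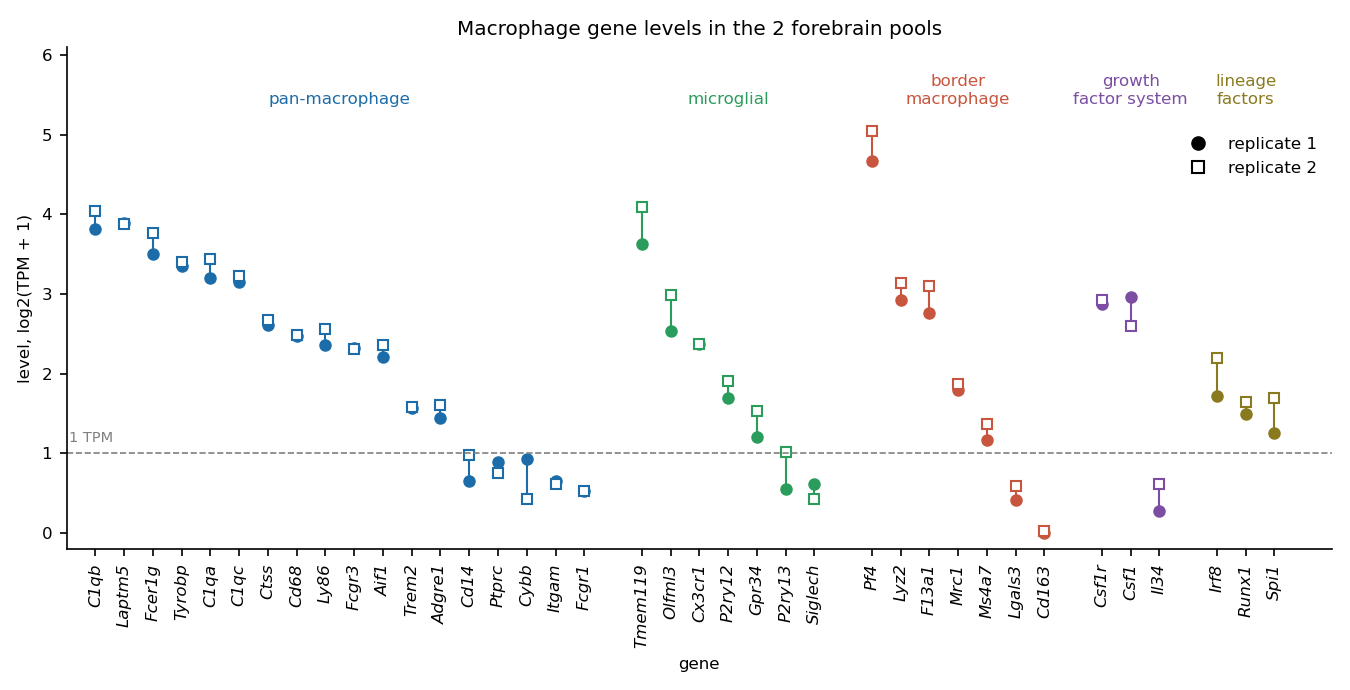
Levels of the 38 genes as log2(TPM + 1), grouped by role and ordered by mean, with replicate 1 as filled circles and replicate 2 as open squares; the dashed line marks 1 TPM. Pf4 stood highest at 24.4 and 31.9 TPM, and Cd163 lay at or near 0 in both pools.

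Among the lineage factors, Spi1 was at 1.38 and 2.23 TPM. Irf8, an interferon regulatory factor needed for normal microglial development, was at 2.30 and 3.60 TPM. Runx1, which blood and yolk sac progenitors need and some neurons also express, was at 1.82 and 2.13 TPM. All 3 were higher in replicate 2 by TPM. For Irf8 the counts differed far less (100 and 108) than the TPM, and they were 54 and 77 for Spi1. Those of Runx1 were 175 and 179, a scaled ratio of 0.994 (0.803 to 1.23, 95% counting interval) in replicate 2 over replicate 1. TPM depends on which transcripts the reads were assigned to, since these differ in length. The ranges of Runx1 and Spi1 over the pools overlapped.

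In the growth factor system, the receptor gene Csf1r stood at 6.36 and 6.58 TPM. Csf1, the ligand made by many cell types, was at 6.79 and 5.08 TPM. The second ligand, Il34, which neurons supply to microglia in much of the later brain, was at 0.21 and 0.53 TPM. Csf1 therefore exceeded Il34 in both pools, 32.3-fold in replicate 1 and 9.58-fold in replicate 2, or by 2.69 and 1.99 on the log2(TPM + 1) scale. The size of that fold rests on only 6 and 16 reads of Il34, whereas Csf1 had 387 and 359. By the deposited posterior mean TPM, in which Il34 was at 0.73 and 1.09 TPM and Csf1 at 7.21 and 5.50 TPM, Csf1 exceeded Il34 9.88-fold and 5.05-fold. The levels of Csf1r and Csf1 overlapped over the pools. Csf1r shares 873 exon bases with Hmgxb3 on the opposite strand (14.4 and 15.4 TPM), and the sources used here do not state whether the counting used strand, so its level is uncertain.

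The long coding form of Csf1, at the junction printed above, made up the larger share of the gene's TPM. Transcripts with the 1656-base coding sequence held 49.5% and 60.1% (54.8 ± 7.50%, SD, n = 2). Those with the 771-base coding sequence held 35.7% and 35.8% (35.7 ± 0.0990%). The main long transcript, Csf1-201, was less steady, at 32.8% and 51.9%, while Csf1-202, the short form, held 35.7% and 35.8%. Long-form transcripts stood above the short form in both pools. By the deposited posterior mean TPM the long form held 42.2% and 53.0% and Csf1-202 33.6% and 33.1%, so that the gap in replicate 1, 8.65 points, was smaller than the difference of the long form between the pools, 10.8 points.

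Pan-macrophage genes had the highest median of the 3 cell type lists. It was 4.07 and 4.35 TPM. On the log2(TPM + 1) scale this was above the microglial median by 0.64 and 0.52, and above the border macrophage median by 0.55 and 0.54. With genes below a mean of 1 TPM left out of the lists, the mean difference from the microglial median was 0.27 and that from the border macrophage median turned to -0.29. Without 6 genes of the 38 that other cells widely express (Csf1, Il34, Runx1, Olfml3, Cd14 and Lgals3), the difference from the border macrophage median was 0.040, and in TPM the border macrophage median was then the higher one, with the pan-macrophage list at 4.51 TPM and the border macrophage list at 4.62 TPM.

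The complement chain genes C1qa, C1qb and C1qc, which encode the subunits of C1q, lie next to each other on chromosome 4 between 136880129 and 136898803, all on the minus strand. C1qb had 13.1 and 15.5 TPM, C1qa 8.23 and 9.88 TPM, and C1qc 7.85 and 8.38 TPM. C1qb exceeded C1qa 1.60-fold and 1.57-fold. The C1q protein itself holds the 3 chains in equal number. C1qa and C1qc overlapped over the pools.

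Adaptor and receptor genes of immune signalling were unequal. Fcer1g, the Fc receptor gamma chain, was at 10.4 and 12.6 TPM, and Tyrobp, which encodes the adaptor DAP12, was at 9.18 and 9.53 TPM. Trem2, a lipid-sensing receptor that signals through DAP12, was lower, at 1.98 and 1.99 TPM. Tyrobp exceeded Trem2 4.64-fold and 4.79-fold, so the ratio was nearly the same in both pools. The Fc receptor gene Fcgr3 was at 4.00 and 3.97 TPM and Fcgr1, the high-affinity Fc receptor, at 0.44 and 0.44 TPM. Fcgr3 has close relatives, and its reads were partly split, but Fcgr2b (0.09 and 0.20 TPM) and Fcgr4 (0.26 and 0.21 TPM) were low.

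Lysosomal genes and further surface markers ranged widely. Laptm5, which encodes a lysosomal membrane protein of blood cells, was at 13.8 and 13.7 TPM, within the range of C1qb. The protease gene Ctss had 5.10 and 5.39 TPM, and Cd68, a lysosomal glycoprotein, 4.56 and 4.58 TPM. Ly86, which encodes the MD-1 partner of a Toll-like receptor relative, had 4.14 and 4.88 TPM. Aif1, the gene of the widely used marker IBA1, had 3.61 and 4.12 TPM. Adgre1, which encodes F4/80, had 1.72 and 2.05 TPM.

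The remaining surface and oxidase genes were below 1 TPM in both pools as reported, but not all of them by the deposited posterior mean TPM. Ptprc, which encodes CD45, stood at 0.86 and 0.68 TPM, or 1.49 and 1.26 TPM by the posterior mean. Itgam, the CD11b integrin gene, stood at 0.57 and 0.53 TPM, or 1.24 and 1.13 TPM by the posterior mean. Cd14, a lipopolysaccharide co-receptor, stood at 0.57 and 0.97 TPM. Cybb, the NADPH oxidase subunit, was at 0.91 and 0.35 TPM on counts of 42 and 34, with a posterior mean of 1.27 and 0.82 TPM. These low values are measured all the same, on 17 to 60 reads per pool over these 4 genes. With neighbours ordered by mean, 9 of 17 adjacent pairs of pan-macrophage genes overlapped over the pools, so the order within the list is only coarse.

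Among microglial genes, Tmem119 led at 11.4 and 16.0 TPM. Tmem119 (chromosome 5, 113793729 to 113800516, minus strand) encodes a membrane protein that separates microglia from other macrophages in the adult brain, and it is also known from bone-forming cells. Olfml3, a secreted glycoprotein gene that mesenchyme also expresses, followed at 4.80 and 6.94 TPM. Cx3cr1, the fractalkine receptor gene, was at 4.16 and 4.20 TPM. The purinergic receptor gene P2ry12, whose product steers microglial processes toward ATP, was at 2.25 and 2.74 TPM. Gpr34, a lysophosphatidylserine receptor gene, was at 1.30 and 1.89 TPM. P2ry13 stood at 0.47 and 1.02 TPM. Siglech stood at 0.53 and 0.35 TPM, with a posterior mean of 0.78 and 0.68 TPM. P2ry13 and Siglech were the only adjacent pair in the order whose ranges over the pools overlapped.

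Genes regarded as microglial in the adult were thus spread over more than an order of magnitude here. Tmem119 exceeded P2ry12 5.07-fold and 5.84-fold, and it exceeded Cx3cr1 2.74-fold and 3.81-fold. The neuronal ligand gene Cx3cl1 was at 7.77 and 6.62 TPM, above its receptor gene Cx3cr1 by 1.87-fold and 1.58-fold. P2ry13 lies within Med12l and Gpr34 within Cask, each on the opposite strand, and P2ry12 shares 9 exon bases with Med12l, which had 5.90 and 5.64 TPM. Cask had 15.5 and 14.7 TPM. Cx3cr1 overlaps Wdr48 on the opposite strand (67.9 and 61.0 TPM), with no exon bases shared. Since strand use in the counting is not known, the levels of these 4 microglial genes are uncertain. Irf8 overlaps Gm20388 (6.01 and 0.92 TPM) on its own strand, and its level is uncertain too.

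Border macrophage genes ran from the highest level of all 38 genes to the lowest. Pf4, the platelet factor 4 chemokine gene, was at 24.4 and 31.9 TPM, above 72.1% and 76.5% of protein-coding genes. Lyz2, the macrophage lysozyme gene, was at 6.59 and 7.84 TPM. F13a1, the A subunit of coagulation factor XIII, was at 5.78 and 7.55 TPM. The mannose receptor gene Mrc1 was at 2.46 and 2.67 TPM, and Ms4a7, a membrane protein gene of border macrophages, at 1.24 and 1.58 TPM. Lgals3, which encodes galectin-3, was at 0.33 and 0.51 TPM, with a posterior mean of 0.74 and 0.88 TPM. Lyz1, the close relative of Lyz2, was listed at 0 in both pools.

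Cd163, the hemoglobin scavenger receptor gene, had 0 and 2 expected counts. A count of 0 in replicate 1 allows a level of up to 0.0342 TPM, taking 3 counts as the limit. Pf4 exceeded Mrc1 9.90-fold and 11.9-fold. Pf4 is also a platelet gene and F13a1 is known from platelets too, so the megakaryocyte list was read beside them. Of its 10 genes, 5 reached 1 TPM in both pools: Clec1b at 4.80 and 5.89 TPM, Ppbp at 4.05 and 5.44 TPM, Itga2b at 2.90 and 3.74 TPM, Tubb1 at 1.78 and 2.48 TPM, and Itgb3 at 1.52 and 1.32 TPM. The list summed to 17.8 and 21.1 TPM and no gene of it was at 0 in both pools. Pf4 exceeded the platelet chemokine gene Ppbp 6.01-fold and 5.86-fold. The part of platelets or megakaryocytes in the Pf4 and F13a1 levels was not tested.

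Microglial and border macrophage lists had nearly the same median. The microglial median was 2.25 and 2.74 TPM and the border macrophage median 2.46 and 2.67 TPM. The difference on the log2(TPM + 1) scale, microglial minus border, was -0.090 and 0.027, with a mean of -0.032 and an SD of 0.083 over the 2 pools. It was smaller than the spread between the pools. With genes below a mean of 1 TPM left out it was -0.56, and without the 6 widely expressed genes it was -0.80. Leaving those 6 out took Olfml3 (4.80 and 6.94 TPM) from the microglial list and Lgals3 (0.33 and 0.51 TPM) from the border list. Pf4 and F13a1, both known from platelets too, stayed in, and so did Tmem119, also known from bone-forming cells. The size of the difference thus depends on which genes stand for each cell type.

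Further genes of both cell types were read from lists written beside the 38. Of 11 further microglial genes, 7 reached 1 TPM in both pools, led by Sparc at 280 and 347 TPM, Tgfbr1 at 84.7 and 81.6 TPM and Sall1 at 27.5 and 22.0 TPM, all of which cells outside the macrophage lineage also express. Fcrls, an Fc receptor-like gene, was at 4.41 and 5.11 TPM. Of 14 further border macrophage and yolk sac genes, 6 reached 1 TPM in both, led by Dab2 at 22.9 and 30.8 TPM, Colec12 at 20.7 and 31.8 TPM and Stab1 at 23.1 and 20.0 TPM. Which cells held the Dab2, Colec12 and Stab1 transcripts was not tested. The median of these 14 genes was only 0.605 and 1.175 TPM, and 7 of them stayed below 1 TPM in both pools. Lyve1, a hyaluronan receptor gene of border macrophages and lymphatic vessels, was at 2.31 and 2.39 TPM. Timd4, a phosphatidylserine receptor gene, was at 0.02 and 0.34 TPM, and Cd209f was listed at 0 in both pools.

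Other blood cells were unevenly represented. None of 10 lymphoid genes reached 1 TPM, and the list summed to 0.36 TPM in each pool. Of 12 monocyte and granulocyte genes, 4 did: Prtn3 at 12.2 and 13.4 TPM, S100a8 at 4.74 and 5.53 TPM, S100a9 at 2.16 and 3.12 TPM, and Ngp at 1.87 and 1.03 TPM. The inflammatory monocyte receptor gene Ccr2 was at 0.17 and 0.26 TPM, and the monocyte marker Ly6c2 at 0.00 and 0.21 TPM. Of 7 mast cell genes only Kit passed, at 18.1 and 19.1 TPM, which other cells express; Hdc had 0.73 and 0.75 TPM, Cpa3 0.33 and 0.46 TPM, and the other 4 were listed at 0 in both pools.

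All 9 erythroid genes passed. Highest of these 9 were embryonic globins, with Hbb-y at 5001 and 6716 TPM, Hba-x at 948 and 1335 TPM and Hbb-bh1 at 350 and 514 TPM. Alas2, which starts heme synthesis in red cells, had 22.2 and 31.8 TPM, and the anion exchanger gene Slc4a1 had 17.4 and 21.2 TPM. Epb42, Klf1 and Rhag ranged from 1.53 to 3.58 TPM. Red cell transcripts were thus in the libraries, and the share of blood in the macrophage genes' levels was not tested.

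**Figure D2:**
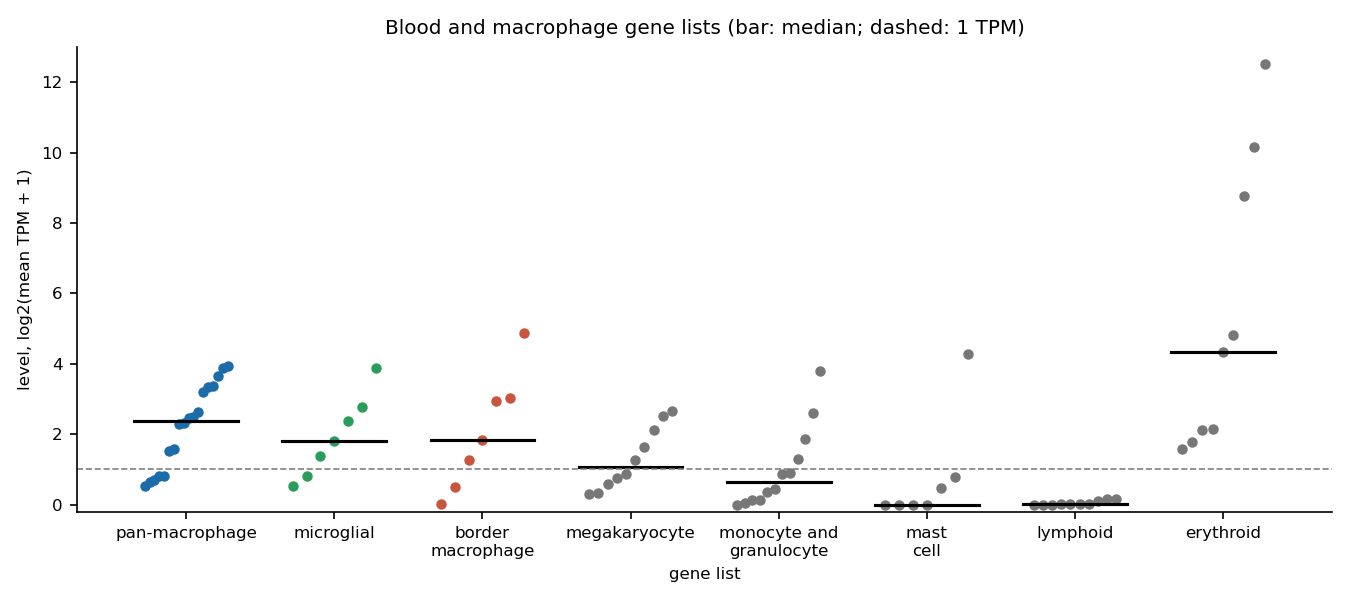
Each point is a gene at log2(mean TPM + 1) over the 2 pools, in the macrophage lists (colours) and in lists of other blood cells (grey), with the list median as a bar and 1 TPM as a dashed line. The lymphoid genes lie near 0, the erythroid list reaches the embryonic globin Hbb-y, and the macrophage lists lie between them.

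The pools were then compared gene by gene, as the ratio of counts in replicate 2 over replicate 1 after scaling to the total of mouse genes. The 95% interval of each ratio is exact binomial and covers counting error only. Of the 28 genes at a mean of 1 TPM or more, 6 had an interval above 1, or 21.4%, against 20.6% of 13092 protein-coding genes, and none had an interval below 1, against 16.1%. The share above 1 is near the background. Intervals are narrower for genes with more reads, and the background genes were not matched to the 28 by read number. Neither share can therefore be compared closely with its background.

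The 6 genes were 3 microglial, 2 border macrophage and 1 pan-macrophage gene. The ratio was 1.41 for Tmem119 (1.25 to 1.58), on 484 reads in replicate 1 and 701 in replicate 2. For Olfml3 it was 1.46 (1.27 to 1.68), and for Gpr34 1.48 (1.01 to 2.17). F13a1 stood at 1.32 (1.16 to 1.49), Pf4 1.33 (1.12 to 1.57) and C1qb 1.19 (1.01 to 1.41). These genes stood higher in the pool of 68 embryos.

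Several macrophage genes with as many reads did not follow them. Cx3cr1 had a ratio of 1.00 (0.846 to 1.19), Laptm5 of 0.981 (0.856 to 1.12) and Csf1r of 1.05 (0.934 to 1.17). Csf1 was at 0.902 (0.779 to 1.04). By TPM, 25 of the 28 were higher in replicate 2 and 3 lower. Over all 13092 protein-coding genes at that mean, 6761 were higher and 6292 lower. The median log2 ratio was 0.18 for the 28 genes, against 0.01 over those protein-coding genes. Below a mean of 1 TPM, P2ry13 stood at 2.20 (1.32 to 3.76) on 23 and 52 reads.

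Lists of other cells moved between the pools too. All 9 erythroid genes had an interval above 1, with a median ratio of 1.43, and so did all 8 mesenchymal genes, with a median of 1.33, led in level by Col3a1 at 307 and 339 TPM, Col1a1 at 171 and 220 TPM and Col1a2 at 121 and 161 TPM. The megakaryocyte median was 1.36, with 2 of 5 genes above 1. The endothelial median was 0.966, with Egfl7 at 39.5 and 45.4 TPM, Kdr at 21.2 and 19.9 TPM and Cldn5 at 20.1 and 20.4 TPM. Among the macrophage lists the medians were 1.07 for 13 pan-macrophage, 1.41 for 5 microglial and 1.32 for 5 border macrophage genes. The microglial median was the ratio of Tmem119 itself, and those 5 genes ranged from 1.00 (Cx3cr1) to 1.48 (Gpr34). The further microglial genes had a median of 1.06, with 1 of 8 above 1 and 1 below, and the further border macrophage and yolk sac genes 1.19, with 5 of 7 above 1. The part of blood and of mesenchyme in these ratios was not tested, and with 2 pools of different size the pool and its number of embryos cannot be told apart.

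**Figure D3:**
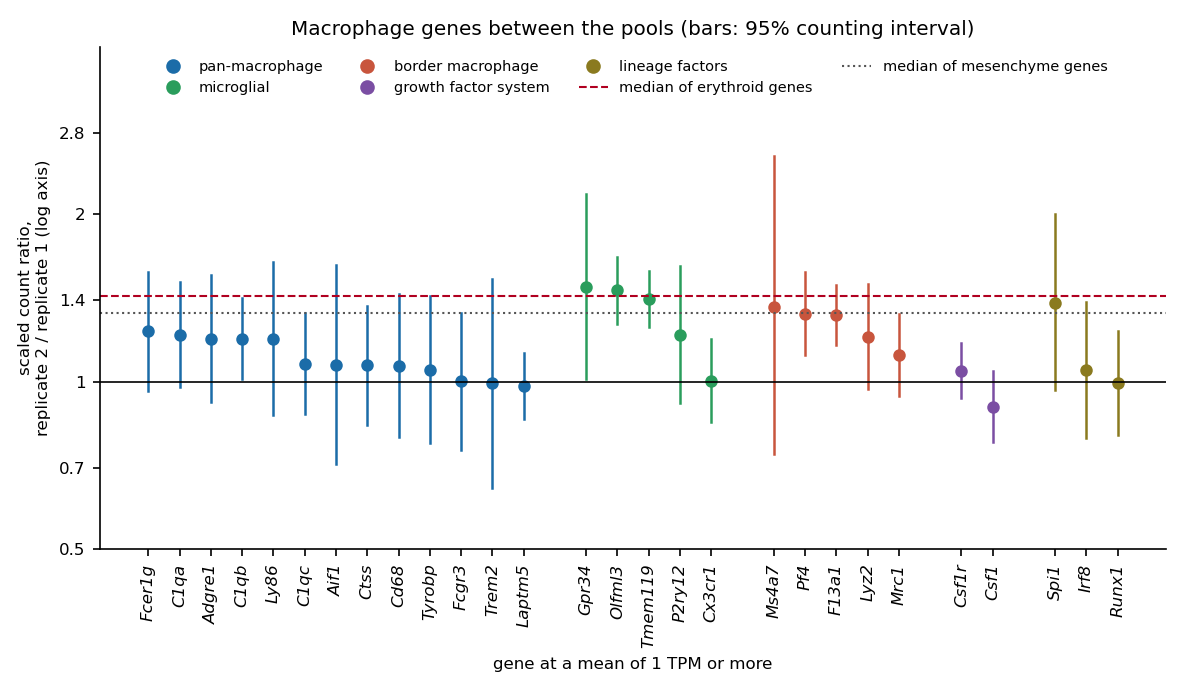
Scaled count ratio of replicate 2 over replicate 1 (log axis) for the 28 genes at a mean of 1 TPM or more, with the 95% counting interval as a bar and the medians of the erythroid (1.43) and mesenchymal (1.33) genes as lines. The intervals of Tmem119, Olfml3, Gpr34, F13a1, Pf4 and C1qb lie above 1, and those of the other 22 genes, Cx3cr1, Laptm5 and Csf1r among them, include 1.

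Transcript shares could be read for the 3 genes with a mean of 5 TPM or more and at least 2 transcripts at 10% or more in both pools: Csf1, described above, Laptm5 and Olfml3. Laptm5 was divided among Laptm5-207 (38.8% and 38.4%), Laptm5-210 (31.0% and 35.5%) and Laptm5-201 (30.2% and 26.2%), so no single transcript dominated. Olfml3-201, the coding transcript, held 67.5% and 68.4%. Olfml3-202, annotated as a retained intron, held 32.5% and 31.6%, and the libraries were of total RNA.

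Runx1 is below that level and was picked after its values were seen, because its promoters are well known. Its distal promoter transcript, Runx1-201, held 28.7% and 24.6% of the gene's TPM on 60.7 and 63.3 expected counts. The proximal promoter transcript, Runx1-202, held 58.6% and 31.1% on 99.6 and 64.5 expected counts. The retained intron transcript Runx1-206 held 7.60% and 25.9%. The proximal form exceeded the distal form in both pools, by a wide margin in replicate 1 and a small one in replicate 2.

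**Figure D4:**
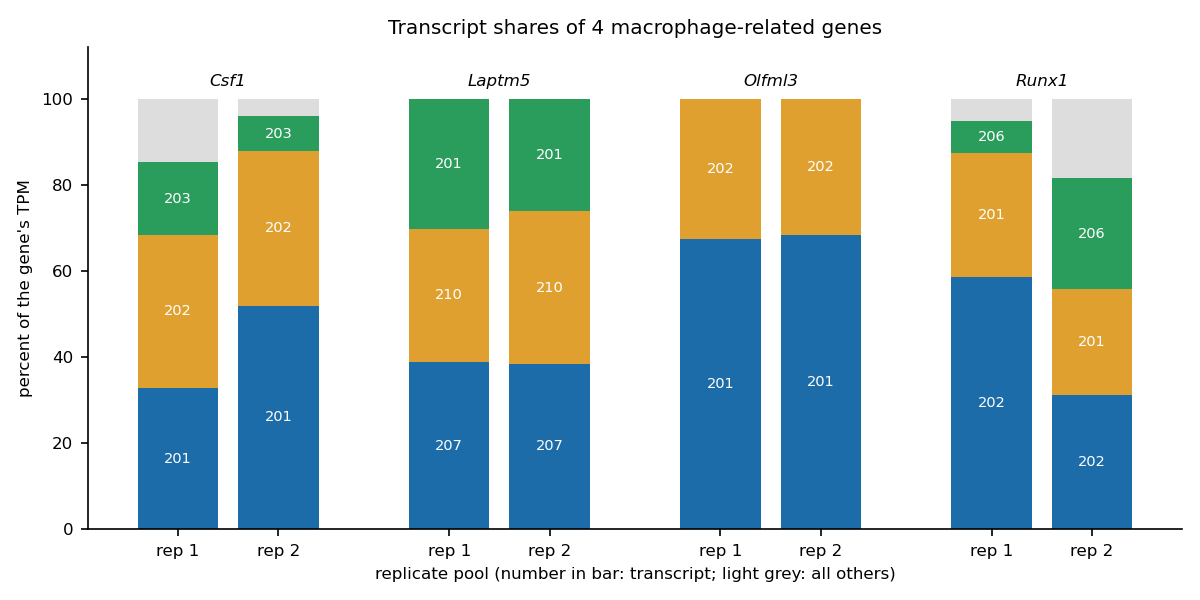
Percent of the gene's TPM held by each transcript of Csf1, Laptm5, Olfml3 and Runx1 in each pool, with the transcript's number in its bar and all other transcripts in light grey. In the shares drawn here, which are not those of the posterior mean, Laptm5 and Olfml3 keep their order in both pools, and Csf1-201 moves between 32.8% and 51.9%.

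Genes of ligands and receptors through which macrophages meet other cells spanned a wide range. Of 16, 8 reached 1 TPM in both pools, led by Cd200 at 50.8 and 48.5 TPM, the chemokine gene Cxcl12 at 46.3 and 52.3 TPM and Cd47 at 43.0 and 46.9 TPM. Cd200 and Cd47 encode surface proteins, found on neurons among other cells, that inhibit macrophages. The receptor gene for CD200, Cd200r1, was at 0.33 and 0.40 TPM, while Sirpa, which encodes the CD47 receptor and which neurons also express, was at 16.4 and 15.0 TPM. The complement gene C3 was at 0.11 and 0.03 TPM.

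Of 12 genes that act downstream of the Fc receptor gamma chain and DAP12 or in the blood cell cytoskeleton, 7 reached 1 TPM in both pools. Coro1a was at 40.3 and 42.1 TPM, Lcp1 at 18.1 and 15.5 TPM, and the Src family kinase gene Lyn at 4.75 and 5.67 TPM. The median of the 12 was 1.66 and 1.64 TPM, and which cells held the Coro1a and Lcp1 transcripts was not tested. Syk, the kinase that binds the phosphorylated adaptors, was at 1.09 and 1.31 TPM.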

How the data were processed

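Total RNA-seq tables of 2 pools of mouse forebrain were used. Per the notes that the authors deposited beside them, every table came from its own replicate on mm10 (GRCm38) with GENCODE M4. The sources used here do not state which aligner and quantifier were run. The authors' tables hold expected counts, which are estimated and need not be whole, and TPM relative to all features, spike-ins included (9.19% and 8.25% of TPM). The deposited FPKM, the deposited posterior mean TPM with the bounds of its interval (treated as a signal with no stated level) and the deposited transcript percent of gene TPM came from the same tables.

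Names, positions and exons came from GENCODE M21 by identifier, and promoters and their positions from RefSeq GRCm38.p6, where 29 of 38 genes matched. The 38 genes and the gene lists were chosen with earlier results of these data known. All 38 genes are named. Of each other list the 3 highest genes are named, and every gene at 1 TPM or more in lists of other blood cells. For transcripts, those are named that led the genes passing the transcript rule. Some genes that this rule names are left out of the text. Others named were chosen after their values were seen. Differences used log2(TPM + 1), which understates changes of low genes. SDs are over the 2 pools, whose embryos are separate. Reads carry no molecular identifiers, so intervals and floors cover counting error only. Of the 38 genes, 36 had expected counts within 0.005 of whole numbers. Expected counts were rounded for edgeR 4.0.16 (TMM) and DESeq2 1.42.0 (size factors), which were used only for alternative scalings. Tables were handled with pandas 2.3.3 and numpy 2.4.6 in Python 3.11.15, intervals came from scipy 1.17.1, plots from matplotlib 3.10.9, and R was version 4.3.3. The ratio interval was tried on simulated counts that held counting error alone, so that trial cannot speak to variation between pools.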

Additional observations from a re-analysis of the deposited data

How the results depend on the processing

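Limits first: 2 pools give no test, TPM of genes under 1 TPM rests on few reads, and strand use in counting is not known here. Of 73 alternative values of the count, list medians, differences and ratios, 50 left the value unchanged, 21 moved it and 2 reversed it. Unchanged meant within the spread between the pools, or within 1.5 times for the count. For the median log2 ratio between pools it meant within the SD of that ratio over genes, a different yardstick. The number of detected genes (28) was 22 at a threshold of 2 TPM, 31 at 0.5 TPM, 37 by 3 counts, 30 by the posterior mean TPM, and 28 to 29 with either pool left out. Rescaling without spike-ins gave medians of 4.65 TPM (pan-macrophage) and 2.81 TPM (border). Keeping genes at a mean of 1 TPM or more gave 5.25 TPM (pan-macrophage), 4.18 TPM (microglial) and 6.67 TPM (border), and moved the microglial minus border difference to -0.56. The pan-macrophage minus border difference then reversed to -0.29. Leaving out 6 widely expressed genes gave 4.51, 2.05 and 4.62 TPM in the same order and a difference of -0.80. The microglial minus border difference ranged from -0.090 to 0.027 with a pool left out, reversing to 0.027 without replicate 1. The log2 ratio of Csf1 to Il34 was 3.76 with a pseudocount of 0.1, 1.94 by the posterior mean TPM, 1.90 by FPKM and 1.99 to 2.69 with a pool left out. The median log2 ratio between pools was 0.16 to 0.24 under its alternatives, of which scaling by mouse gene counts and leaving out the 6 genes were chosen after seeing the data. Posterior mean TPM was higher for 20 genes and lower for 17, and over 1.5 times off for 7, all among the 10 genes under a mean of 1 TPM. By the posterior mean, the shares of Laptm5, Olfml3, Csf1-201 and Csf1-202 moved by at most 6.68 points. Laptm5-201 then stood above Laptm5-210 in replicate 1 (26.94% and 24.66%) and below it in replicate 2 (24.21% and 28.45%). The Csf1 long form and Runx1 shares were compared after seeing the data: the long form held 47.6% against 54.8% as reported, and Runx1-202 32.9% against 44.9%. Fewer genes or another unit define these alternatives; the cause of the remaining shifts was not tested. No paired analysis was possible because there is 1 group.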

Other observations

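Genes of a phagocytic or activated macrophage state were divided. Of 16, 12 reached 1 TPM in both pools. Lgals1 at 178 and 265 TPM, the lysosomal gene Lamp1 at 167 and 172 TPM and the protease gene Ctsd at 110 and 110 TPM were highest, and the lipid carrier gene Apoe was at 94.5 and 106 TPM; many cell types express these. Spp1, which encodes osteopontin, was at 1.78 and 3.14 TPM. The more restricted genes were low: Gpnmb was at 0.07 and 0.53 TPM, Cst7 at 0.28 and 0.16 TPM, Clec7a at 0.16 and 0.02 TPM and Itgax at 0.01 and 0.04 TPM.

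Of 14 regulators of macrophage identity, 10 reached 1 TPM in both pools. Zeb2 at 59.4 and 50.0 TPM, Mef2a at 22.7 and 21.9 TPM and Smad3 at 19.4 and 19.1 TPM led them, and neural cells express all of these. Maf, a factor of mature macrophages, was at 2.50 and 2.93 TPM.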
